A study of Mus musculus with 4 samples.

Results

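Among the cells of gastruloids at day 11, 731 cells held *Tcf21* transcripts but none of *Wt1*, *Cdh5*, *Epcam* or *Msc*, and little *Gata6* and *Myl7*. They were 8.37% (exact 95% interval 7.80 to 8.97%) of the 8730 day 11 cells with 2000 or more UMIs (unique transcript molecules) and under 20% of UMIs from mitochondrial genes, out of 9584 deposited day 11 cells and 31330 cells in the whole series. The rule asked for 1 or more UMIs of *Tcf21*, 0 UMIs of the other 4 genes, under 3 *Gata6* UMIs per 10000 and under 30 *Myl7* UMIs per 10000. These 7 genes therefore say how the cells were chosen, and their levels are not results.

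Gastruloids are aggregates of mouse embryonic stem cells that form tissues of the early embryo in culture. The line was wild type Zx1, received the Wnt agonist Chiron from day 2, the cardiogenic factors bFGF, VEGF and ascorbic acid from day 4 to day 7, and then plain N2B27 medium, and at least 8 gastruloids were pooled for each day. All 4 libraries (days 4, 5, 6 and 11) share this line and protocol. They differ in age and so in how much of the treatment the cells had received. Each day was sampled once. No statistical test or standard error is therefore given, and every interval below is at 95% and covers counting error only.

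*Tcf21* (also called capsulin, Pod-1 or epicardin; chromosome 10, bases 22817263 to 22820143 of GRCm38) encodes a basic helix-loop-helix transcription factor of mesenchyme. It marks head muscle progenitors of the cardiopharyngeal mesoderm, the epicardium and its fibroblast descendants, and the mesenchyme around lung, gut and kidney. *Wt1* marks epicardium and mesothelium, *Msc* head muscle progenitors, *Cdh5* endothelium, *Epcam* epithelium, *Myl7* cardiomyocytes, and *Gata6* cardiac and other visceral mesoderm.

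The 4 libraries held 6628 to 9584 cells and median depths of 11318 to 27745.5 UMIs per cell, with day 11 the shallowest. Between 16 and 23 of its barcodes also occurred in each earlier library, including 1 to 3 of the 731 cells per library. Within day 11, the *Tcf21*+ *Wt1*- cells had a median of 10910 UMIs and 3208 genes, and all other cells 12255 UMIs and 3426 genes. Doublets were left in. Of the *Tcf21*+ *Wt1*- cells, 48 (6.57%) were among the 8% with the highest doublet scores.

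*Tcf21* was found in 1903 day 11 cells (21.8%, 20.9 to 22.7%), of which the 731 chosen cells were 38.4%. *Gata6* took out 612 of the others, *Wt1* 593, *Myl7* 159, *Msc* 96, *Cdh5* 50 and *Epcam* 23. A single limit removed 844 cells, with *Gata6* alone removing 355 and *Wt1* alone 340. Most *Tcf21*+ cells at day 11 thus lay outside the set, and most of those left out failed a single limit.

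Among the 731 cells, 371 held 1 *Tcf21* UMI, 187 held 2, 93 held 3, and the highest count was 9. Their summed *Tcf21* level was 150 CPM (UMIs per 1000000 summed UMIs of the cells; 142 to 158). The limits cut through continuous ranges. Inside the *Gata6* limit, 308 cells had no *Gata6* UMI and 139 had 2 to 3 per 10000 (median 2.43), while 120 cells removed by *Gata6* alone had 3 to 4 per 10000 (median 3.48). For *Myl7* the edge was nearly empty, with 2 cells inside at 20 to 30 per 10000 and 4 outside at 30 to 40.

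*Tcf21* was also detected at a low rate in cells that should lack it. In endothelium-like cells 7.13% held a UMI (median depth 19177 UMIs), in neural ectoderm-like cells 4.19% (11049 UMIs), and in mesenchyme-like cells 30.7% (10768 UMIs). After thinning every cell to 5000 UMIs these shares were 2.06%, 1.65% and 19.4%. In CPM, *Tcf21* stood at 4.68 (3.72 to 5.81) in endothelium-like, 5.33 (4.30 to 6.53) in neural ectoderm-like and 56.7 (54.5 to 58.9) in mesenchyme-like cells. The 26 cells of the set that lay in neural ectoderm-like clusters thus came from groups where *Tcf21* stood at this low level.

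The label mesenchyme was checked against 15 mesenchyme genes. Compared with all other day 11 cells, which include 1172 *Tcf21*+ cells removed by the limits, 14 of them were at 10 CPM or more in either set. Of these, 5 were at least 2 times higher (ratio of CPM plus 10) and none lower, with a median ratio of 1.71 against 1.02 over all 8652 genes compared. *Dcn* and *Lum* had the largest of these ratios (2.67 and 2.54), followed by the collagen genes *Col1a1* (2.22) and *Col3a1* (2.09). *Col1a1*, the main chain of fibrillar collagen I, stood at 287 CPM (276 to 298) against 123 (122 to 125), a ratio of 2.32 (2.23 to 2.42). *Pdgfrb*, a PDGF receptor of mesenchyme and mural cells, stood at 81.5 CPM against 35.0. The transcription factors *Twist1* (133 against 102 CPM) and *Prrx1* (113 against 109 CPM) and the filament gene *Vim* (1650.8 against 1599.5 CPM) were nearly level. The genes past 2 were matrix and receptor genes, and the mesenchyme transcription factors were carried by other day 11 cells too.

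Markers of other tissues were tallied too, where the rule itself asked for 0 UMIs of *Cdh5*, *Epcam* and *Wt1* and so selects against endothelium, epithelium and epicardium. Over the 9 endothelium genes the summed level was 70.0 CPM, of which *Egfl7* gave 48.3 and *Cldn5* 0.2, against 402.5 in the other cells. The 10 endoderm and epithelium genes summed to 1.47 CPM. Of the 9 epicardium and mesothelium genes, *Upk3b* stood at 0 and *Krt19* at 0.3 CPM, while *Aldh1a2*, a retinoic acid synthesis enzyme, reached 22.2 CPM against 10.8. Haematopoietic genes summed to 113 CPM, and 97.5% of these UMIs lay in 5 cells of the haematopoietic-like group. The 10 neural ectoderm genes summed to 364 CPM against 674 in the other cells. The 5 haematopoietic-like cells carried *Tcf21* and met the rule, but not the label.

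Clustering all 8730 cells, with the 7 rule genes kept out of the variable genes, spread the set over 19 of 26 clusters. The spread was broad but uneven, since 8 clusters each held at least 5% of the set and together 677 cells (92.6%). The largest part, 144 cells, sat in cluster 3, led by the cell cycle genes *Top2a*, *Nusap1* and *Hist1h1b*. A further 109 were in cluster 11 (*Kazald1*, *Tlx1*, *Tac2*), 105 in cluster 1 (*Scx*, *Fibin*, *Filip1l*), 95 in cluster 4 (*Tac2*, *Tmem45a*) and 87 in cluster 6 (*Dcn*, *Ecm1*, *Lum*). Clusters 8 (*Gal*, *Colec11*), 14 (*Foxf1*, *Cd55*) and 18 (*Ifit3*, *Isg15*) held 61, 39 and 37. No cluster was made mainly of these cells. They were 27.9% (23.5 to 32.6%) of cluster 11 and 9.89% (8.16 to 11.8%) of cluster 1.

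**Figure D1:**
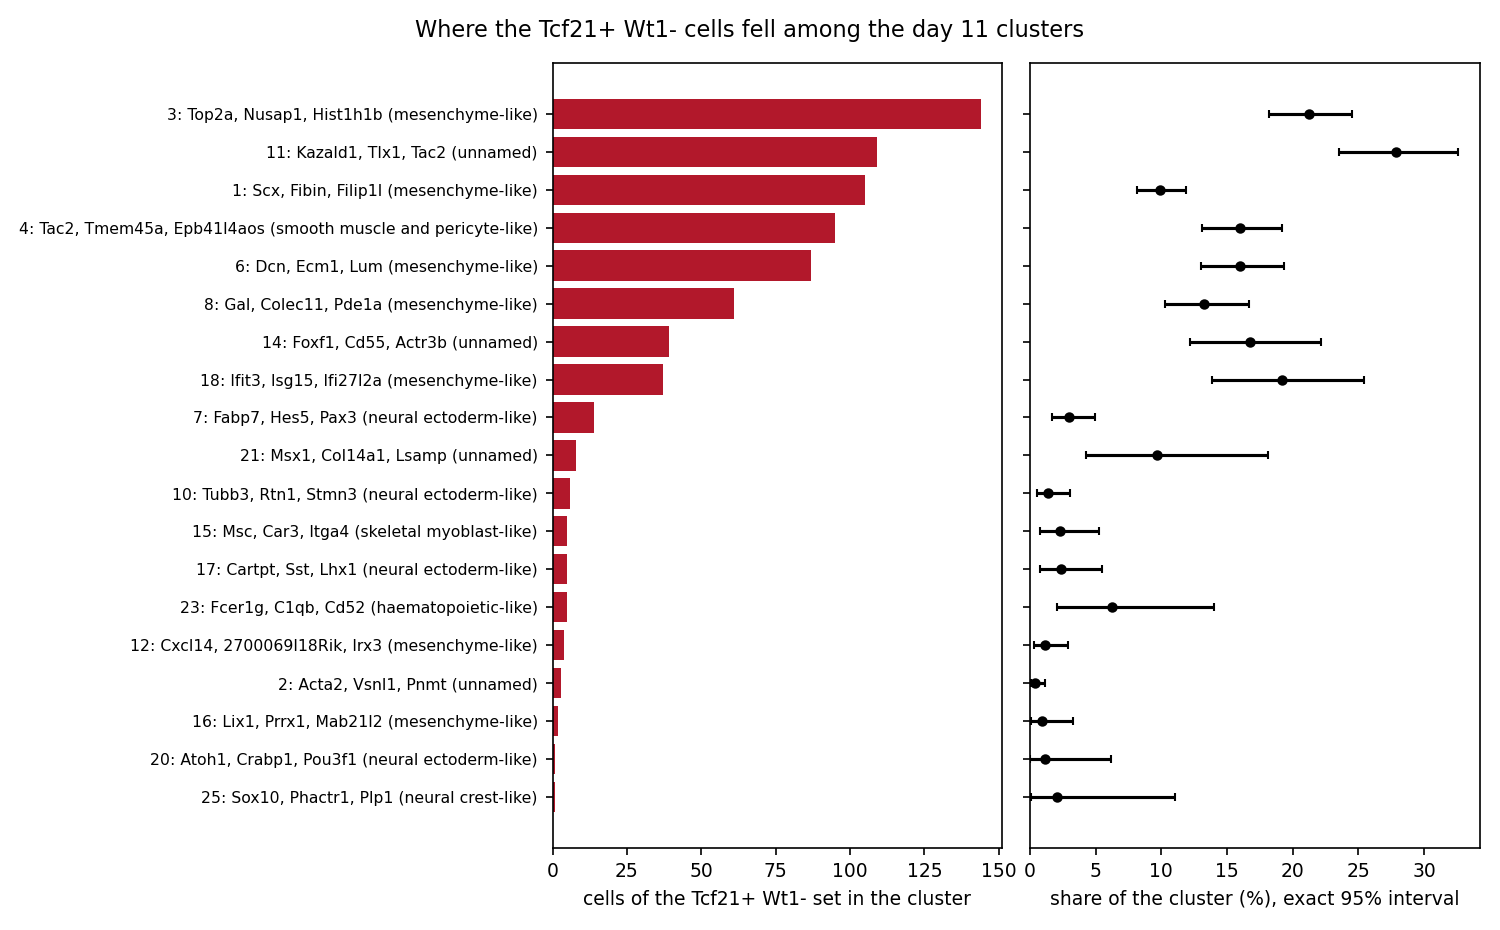
Left, number of *Tcf21*+ *Wt1*- cells in each day 11 cluster that held any, with the cluster's 3 leading genes and its name where its markers gave one. Right, the share of the cluster they made up, with exact 95% binomial intervals. Cluster 3 held the largest number (144, in a cluster with a median of 15156 UMIs) and cluster 11 had the highest share (27.9%).

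By markers, 440 of the cells (60.2%) lay in the 7 mesenchyme-like clusters and 95 (13%) in the smooth muscle and pericyte-like cluster 4, a name that rested on 3 of 10 markers. None of the 10 leading genes of cluster 4 was on the smooth muscle and pericyte list. Another 159 lay in clusters that took no name, chiefly clusters 11 and 14. The remaining 37 cells were in neural ectoderm-like (26), haematopoietic-like (5), skeletal myoblast-like (5) and neural crest-like (1) clusters. None lay in clusters named cardiomyocyte-like, endothelium-like or endoderm and epithelium-like, classes that the *Myl7*, *Cdh5* and *Epcam* limits select against. The unnamed cluster 2, where 9 of 12 cardiomyocyte genes were raised, held 3 cells of the set. Over all cells of a cluster, *Tcf21* stood at 127 CPM (118 to 137) in cluster 8 and 124 CPM (113 to 135) in the unnamed cluster 11, but at 1.90 CPM (0.762 to 3.91) in cluster 12 (*Cxcl14*, *Irx3*) and 3.1 CPM (1.60 to 5.42) in cluster 16 (*Lix1*, *Prrx1*).

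Against all other day 11 cells, 32 of 8652 genes (0.37%) were at least 2 times higher and 290 (3.35%) at least 2 times lower. The lower genes were led by sarcomere genes, which the *Myl7* limit selects against: *Actc1*, cardiac actin, stood at 51.2 CPM against 2838, and the 12 cardiomyocyte genes were all lower, at 256 CPM in sum against 11659. *Actc1*, *Myl4*, *Ttn*, *Tnni3*, *Cox6a2*, *Myl3*, *Tnnc1*, *Myh6*, *Myl2* and *Tnnt2* were the 10 with the smallest ratios, which were 0.0123 to 0.0296 in CPM.

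*Tac2*, which encodes the neuropeptide precursor of neurokinin B, had the largest ratio among genes at 100 CPM or more in the set, at 247 CPM (237 to 257) against 68.2 (66.8 to 69.5), or 3.62 times (3.46 to 3.79). The small leucine-rich proteoglycans *Dcn* and *Lum*, which bind collagen fibrils, followed at 196 and 111 CPM against 67.2 and 37.9, ratios of 2.91 (2.77 to 3.06) and 2.94 (2.75 to 3.14). *Bgn*, another proteoglycan of this family, stood at 107 against 48.2 CPM. Under 100 CPM some ratios were larger, as for *Kcnj8* at 74.6 against 19.7 CPM (3.78 times, 3.48 to 4.11), *Tlx1* at 38.3 against 9.89 (3.87 times, 3.44 to 4.35) and *Foxf1* at 25.4 against 5.46 (4.64 times, 4.00 to 5.38), genes chosen after their values were seen.

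Further matrix genes were among the first 20. *Col3a1* stood at 766 CPM against 362 (2.12 times, 2.06 to 2.17), and the microfibril genes *Mfap4* and *Mfap2* at 406 against 178 and 304 against 154 CPM, of which *Mfap2* stayed under 2 on CPM plus 10. *Cxcl12*, a chemokine made by stromal cells, stood at 113 CPM against 45.0 (2.52 times, 2.36 to 2.68). *Dlk1*, a non-canonical Notch ligand of immature mesenchyme, stood at 606 against 288 CPM. *Ppp1r14a*, an inhibitor of myosin phosphatase in smooth muscle, stood at 103 against 40.1 CPM, and *Zeb2*, a repressor tied to mesenchymal state, at 313 against 141. The other genes of the first 20 were *Tshz2*, *Cdh11*, *Sparcl1*, *Emp3*, *Gpc6*, *Fos*, *Gpc3* and *Snhg18*, with ratios of 1.94 to 2.18. Of the first 20 genes 13 were at least 2 times higher on CPM plus 10. With every cell thinned to 5000 UMIs 4 of these 13 were (*Tac2*, *Dcn*, *Ppp1r14a* and *Lum*), and *Col3a1* stood at 1.63 and *Col1a1* at 1.79. Against other cells with *Pdgfra*, *Tac2* and *Ppp1r14a* were the 2 of the 13 past that limit, with *Col3a1* at 1.16. *Fos* is an immediate early gene, and of 9 genes of that list compared 7 had ratios over 1 and none reached 2.

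**Figure D2:**
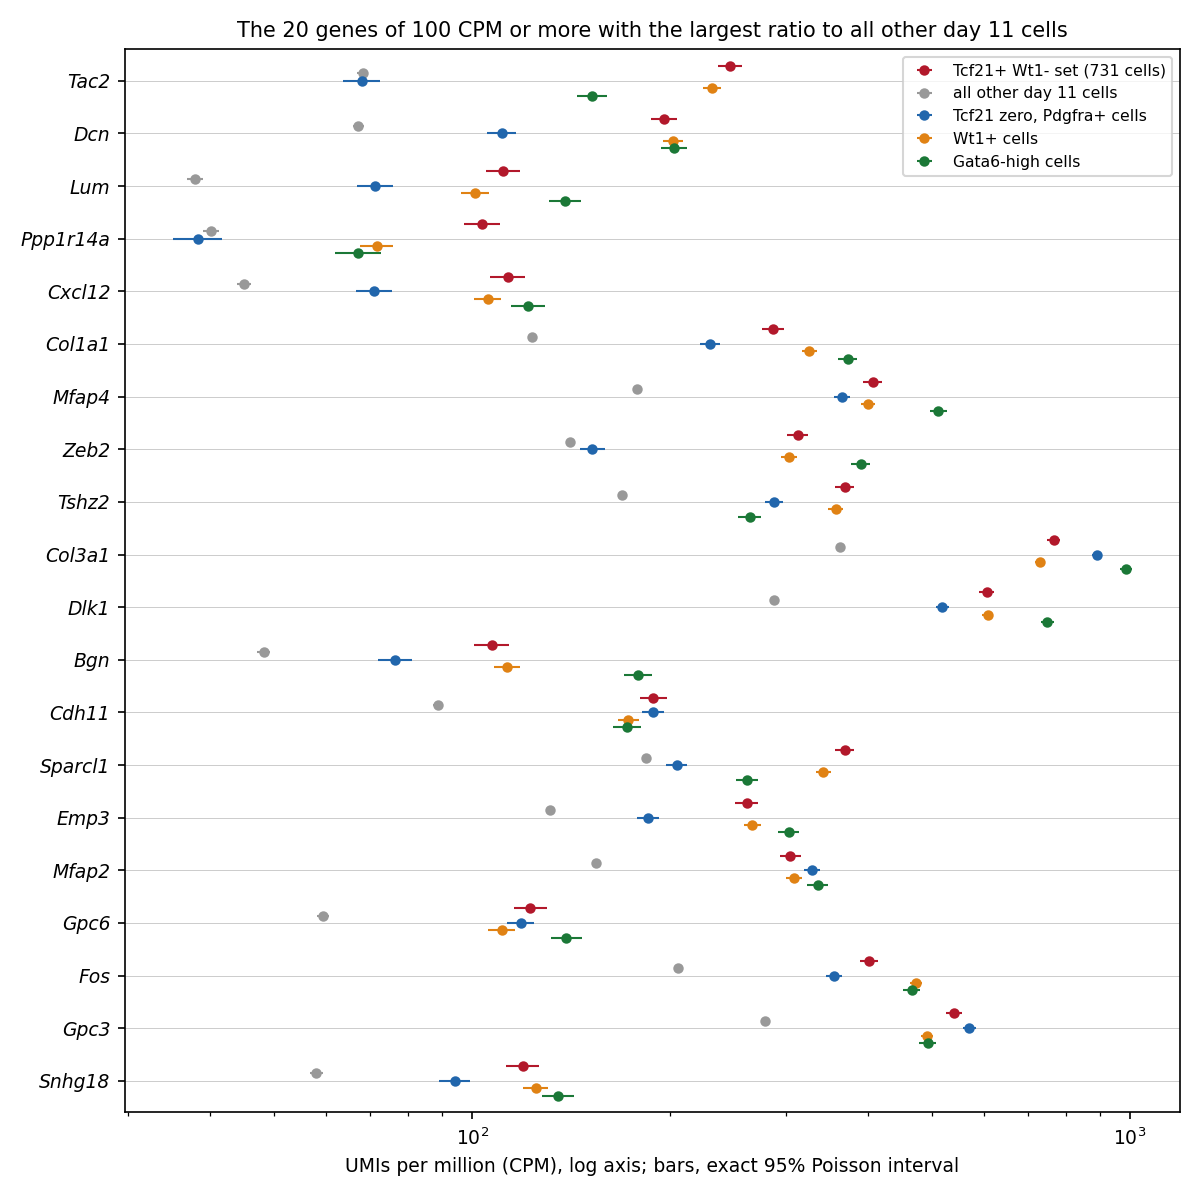
Level (CPM, log axis) of the 20 genes with the largest ratio to all other day 11 cells among genes at 100 CPM or more in the set, in the *Tcf21*+ *Wt1*- set and 4 other sets of day 11 cells, with exact 95% Poisson intervals. Wt1+ cells lie close to the set for most genes, while *Tac2* in *Tcf21* zero, *Pdgfra*+ cells (67.9 CPM) lies at the level of all other cells (68.2 CPM).

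As groups, 23 collagen chains were compared, of which 2 were higher and none lower, with a median ratio of 1.47 and 18 over 1. Of 15 other matrix proteins 4 were higher, with a median of 1.66 and all over 1. The 17 genes that crosslink or remodel matrix, such as the collagen chaperone *Serpinh1* (613 against 439 CPM), had a median of 1.35, with none past 2. These medians stand beside 1.02 over all genes. Because the other cells hold cardiomyocytes, neural cells and endothelium, the comparison sets mesenchyme against a mixture, and nearer sets were compared next.

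The nearest set without *Tcf21* was of 1103 cells that passed every limit, held no *Tcf21* UMI and at least 1 UMI of *Pdgfra*, with a median of 10497 UMIs. At this depth a cell with no *Tcf21* UMI is not shown to lack the transcript. *Pdgfra* was asked of these cells but not of the *Tcf21*+ *Wt1*- set. The comparison therefore cannot tell differences tied to *Tcf21* from those tied to the choice by *Pdgfra*. Of 8355 genes, 18 (0.215%) were at least 2 times higher in the *Tcf21*+ *Wt1*- cells and 57 (0.682%) lower. The general matrix genes no longer stood apart: of 25 collagen chains and 17 other matrix proteins none passed 2 in either direction, with medians of 0.90 and 1.01. Smooth muscle and pericyte genes stood on the higher side, and *Prrx1*, *Twist1* and *Hoxc* genes on the lower side.

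Among genes at 100 CPM or more *Tac2* was again first, at 247 against 67.9 CPM (3.63 times, 3.37 to 3.92). *Acta2*, smooth muscle actin, stood at 174 CPM (166 to 183) against 55.3 (51.5 to 59.3). Both subunits of soluble guanylate cyclase, the nitric oxide receptor of smooth muscle and pericytes, were higher, with *Gucy1b1* at 113 against 40.8 CPM (2.77 times, 2.50 to 3.07) and *Gucy1a1* at 150 against 59.3 (2.52 times, 2.32 to 2.75). *Kcnj8*, a potassium channel of pericytes, stood at 74.6 CPM against 21.9 (3.41 times, 2.97 to 3.91), and *Rgs5*, another pericyte gene, at 41.4 against 16.97. Of the 5 smooth muscle and pericyte genes compared, *Acta2* and *Kcnj8* were higher, with all 5 ratios over 1 and a median of 1.92. In sum the 10 genes of this list reached 357 CPM against 134. This held against the *Tcf21* zero cells alone: the sum was 448 CPM in *Wt1*+ cells (median ratio 0.91), 550 in *Gata6*-high cells (median 0.77, 1 gene lower) and 824 in all other cells (median 0.68). The remaining higher genes of the first 10 were *Ppp1r14a*, *Tagln2*, *Ndufa4l2*, *Zeb2*, *Mgp* and *Fabp7*, with ratios of 2.05 to 2.71.

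*Fabp7*, a fatty acid binding protein of radial glia, belonged to few cells. It stood at 158 CPM against 60.1 over the whole set, but at 38.0 CPM once 38 cells led by neural genes (sub-cluster 7, described later) were left out, which turns its direction. The other 9 leading genes kept theirs. *Acta2* stood at 168.9 and *Tac2* at 269 CPM without those cells.

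The next genes were picked from the receptor and splanchnic mesenchyme lists after their values were seen. *Ptch1*, the Hedgehog receptor and a target of the pathway, stood at 98.0 CPM (91.8 to 105) against 40.7 (37.5 to 44.2), a ratio of 2.41 (2.16 to 2.67). *Gli1*, the other standard target, stood at 10.6 CPM (8.66 to 12.9) against 4.65 (3.59 to 5.93). *Foxf1*, a splanchnic mesoderm factor downstream of Hedgehog signals in gut mesenchyme, stood at 25.4 CPM against 12.1 (2.10 times, 1.72 to 2.57). Of the 5 splanchnic genes compared none passed 2 on CPM plus 10 in either direction, and 3 had ratios over 1. *Ptch1* was higher than in each of the other sets too, at 44.0 CPM in *Wt1*+ and 60.8 in *Gata6*-high cells. Of the 21 receptors compared, *Ptch1* was the one past 2, and the median was 0.94.

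The transcription factors of pharyngeal and splanchnic mesoderm named here were under 100 CPM in both sets. *Tlx1*, needed for spleen mesenchyme, stood at 38.3 CPM (34.5 to 42.5) against 14.0 (12.1 to 16.1), *Nkx2-3* at 18.9 against 5.94, *Isl1* at 17.2 against 6.30 and *Hand2* at 74.2 against 39.4 CPM. In contrast, the cardiopharyngeal factors *Lhx2* (6.8 against 21.6 CPM) and *Ebf3* (16.5 against 32.9) were on the lower side. Of 9 genes of the cardiopharyngeal list compared, 1 (*Tlx1*) was at least 2 times higher and none lower, with a median of 0.89 beside 0.97 over all genes. *Tlx1*, *Isl1* and *Hand2* were the only 3 with ratios over 1. *Ebf1*, also on that list, stood at 65.8 CPM in the set and 84.2 in all other day 11 cells. *Tbx1* stood at 1.7 CPM.

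On the lower side, *Prrx1*, a homeobox factor of limb and cranial mesenchyme, stood at 113 CPM (107 to 120) against 418 (408 to 429), a ratio of 0.271 (0.253 to 0.289). *Twist1* stood at 133 against 294 CPM (0.453, 0.425 to 0.483). *Crabp2*, a retinoic acid carrier, was at 43.6 against 184 CPM, *Zfhx4* at 79.3 against 309, *Zfhx3* at 103 against 298, and *Lix1*, a limb gene, at 22.6 against 102. *Mpped2*, *Plpp3* and *Lpar1* had ratios of 0.337 to 0.415. The tendon factor *Scx* stood at 20.1 against 71.6 CPM, and the growth factor genes *Igf1* (116 against 257) and *Tgfb2* (109 against 240) had ratios of 0.452 and 0.453. Leaving out the 38 neural-gene cells raised the number of lower genes to 92 and left all 10 named lower genes on their side. Day 11 clusters 12 and 16 held 13.8% and 9.52% of the *Tcf21* zero, *Pdgfra*+ cells, but 0.547% and 0.274% of the set. *Prrx1*, *Lix1*, *Zfhx4* and *Hoxc10* were among the 10 leading genes of both clusters. What part these clusters had in the lower genes was not tested.

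**Figure D3:**
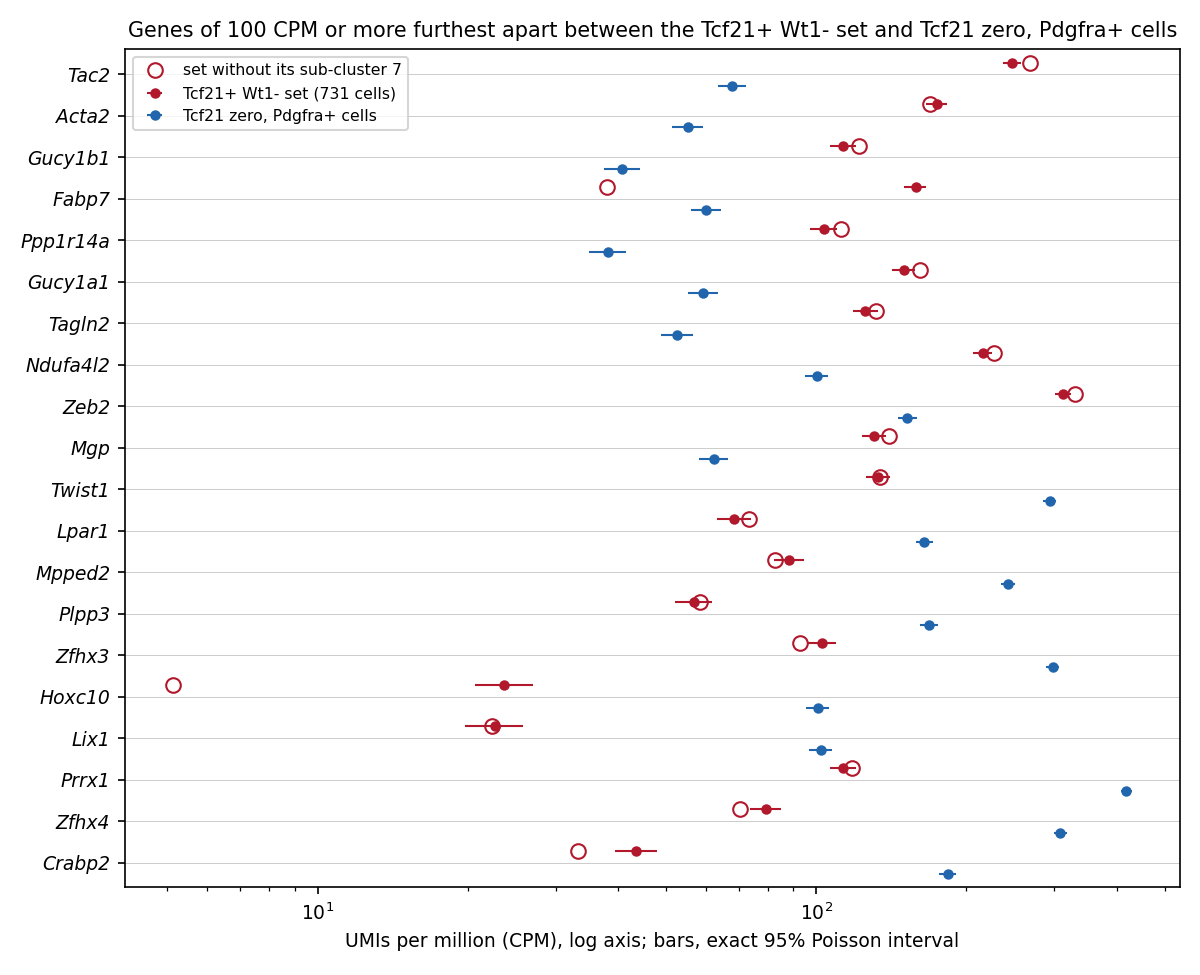
Level (CPM, log axis) of the 10 genes with the largest and the 10 with the smallest ratio between the *Tcf21*+ *Wt1*- set (red) and *Tcf21* zero, *Pdgfra*+ cells (blue), among genes at 100 CPM or more in the higher of both, with exact 95% Poisson intervals. Open circles give the set without its 38 cells led by neural genes; the circle crosses to the other side of the blue point for *Fabp7* (38.0 against 60.1 CPM) and for no other gene shown.

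Hox genes, which mark position along the body axis, differed by cluster. The 9 *Hoxc* genes summed to 156 CPM in the set and 412 in the *Tcf21* zero cells, and 3 of 6 compared (*Hoxc5*, *Hoxc9* and *Hoxc10*) were at least 2 times lower. *Hoxc10*, of the lumbar level, stood at 23.7 CPM (20.7 to 27.0) against 101 (95.6 to 106). Most of that remainder came from few cells, since *Hoxc10* was at 198 CPM in the 38 neural-gene cells and at 5.1 CPM in the other members. *Hoxc9* likewise dropped from 33.7 to 11.8 CPM without them. *Hoxb* genes summed to 236 against 245 CPM, with *Hoxb4* at 68.5 against 74.1, but to 191 CPM without the neural-gene cells. Paralogues 1 to 5 summed to 316 CPM and paralogues 9 to 13 to 139, against 411 and 308 in the *Tcf21* zero cells. Without the neural-gene cells these sums were 302 and 61.8 CPM.

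The cells with *Wt1* (1128 cells with 1 or more *Wt1* UMIs, no *Cdh5* or *Epcam* and *Myl7* under the limit, of which 515 held *Tcf21*) were much nearer. Of 8267 genes, 9 (0.109%) were at least 2 times higher in the *Tcf21*+ *Wt1*- cells and 29 (0.351%) lower. At a median of 10910 UMIs, a *Tcf21*+ *Wt1*- cell is not shown to lack the *Wt1* transcript. *Tac2*, *Dcn*, *Col1a1*, *Pdgfra* and *Twist1* had ratios of 0.880 to 1.06, with *Dcn* at 196 against 202 CPM, *Pdgfra* at 77.9 against 80.3 and *Twist1* at 133 against 128. Among 14 mesenchyme genes compared none passed 2, and the median was 0.99. The same 8 clusters that held 92.6% of the set held 90.8% of the *Wt1*+ cells, against 72.7% of the *Tcf21* zero, *Pdgfra*+ cells. They also held 95.4% of the *Gata6*-high cells described below, so this share is not particular to *Wt1*+ cells.

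Of the 5 genes with the smallest ratios to *Wt1*+ cells, 4 were muscle genes. *Mylpf*, a fast skeletal myosin light chain, stood at 4.0 CPM against 112, and *Actc1* at 51.2 against 313, *Myl4* at 40.2 against 116 and *Tnnt2* at 52.8 against 134. The *Wt1*+ set had no limit on *Msc* or *Gata6*, and 16 and 11 of its cells lay in the skeletal myoblast-like clusters 15 and 24. The other was *Ecm1*, a secreted matrix protein, which stood at 57.3 against 126 CPM (0.455, 0.413 to 0.500). On the higher side *Fabp7* (158 against 83.7 CPM) and *Ckb* (217 against 141) turned direction without the 38 neural-gene cells, at 38.0 and 130 CPM. *Ldhb*, *Ppp1r14a* and *Serpine2* were at 1.42 to 1.44 times. *Foxf1* stood at 25.4 against 6.83 CPM, 3.71 times (2.95 to 4.69). *Wnt4* was lower, at 78.7 against 122 CPM.

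Cells with high *Gata6* were further off by the number of genes past 2, though not by the clusters they shared. They were 780 cells at 3 or more per 10000, with no *Wt1*, *Cdh5* or *Epcam* and *Myl7* under the limit. Of these 368 held *Tcf21*. Of 8357 genes, 38 (0.455%) were at least 2 times higher in the *Tcf21*+ *Wt1*- cells and 47 (0.562%) lower. Without the 38 neural-gene cells the higher count was 14. Matrix genes were lower in the set: all 18 other matrix proteins compared had ratios under 1, with a median of 0.75, and *Fn1*, fibronectin, stood at 156 against 305 CPM. *Postn*, a matrix protein of fibroblasts, stood at 101 against 174 CPM. None of these 18 passed 2.

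Cardiac genes were lower as well, with *Myh7* at 4.1 against 167 CPM, *Myl3* at 9.7 against 228, *Myl2* at 8.6 against 195, *Ttn* at 18.7 against 172 and *Actc1* at 51.2 against 340. On the higher side *Igfbp2*, an IGF binding protein, stood at 130 CPM against 36.2 (3.58 times, 3.17 to 4.05) and *Crabp1*, a retinoic acid carrier, at 262 against 90.1 (2.91 times, 2.68 to 3.15). Without the neural-gene cells they stood at 106 and 175 CPM. *Tubb2b* stood at 275 against 112 CPM and *Pclaf*, a DNA replication gene, at 306 against 162. *Tubb2b* was at 129 CPM without the neural-gene cells, close to the *Gata6*-high value. All 37 S phase and all 50 G2 and M phase genes compared had ratios over 1, with medians of 1.35 and 1.30, and none passed 2. All 22 Hox genes compared also had ratios over 1, with a median of 1.54 and a sum of 592 against 295 CPM. Without the neural-gene cells the Hox sum was 458 CPM. Paralogues 9 to 13 fell from 139 to 61.8 CPM without them, against 53.7 in *Gata6*-high cells.

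Clustering the 731 cells alone, again without the rule genes, gave 7 sub-clusters. Their leading genes describe how they were split and are not tests. *Tcf21* chose the cells, so its levels here are a description with a floor set by depth, and their order is no result. It stood highest in sub-cluster 4 at 203 CPM (177 to 232), in sub-cluster 6 at 198 (169.2 to 230), in sub-cluster 1 at 183 (164 to 205) and in sub-cluster 3 at 176 (154.96 to 199), whose intervals overlap. It was lower in sub-cluster 5 at 122 (101 to 147) and sub-cluster 2 at 115 (102 to 129), and lowest in sub-cluster 7 at 68.0 (52.1 to 87.1). Sub-clusters 2 and 7, with the lowest levels, were the deepest (medians of 14899.5 and 20911 UMIs).

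Sub-cluster 1 (160 cells) was led by *Plac8*, *Dcn* and *Bst2*, with *Dcn* at 536 CPM against 121 in the other members, *Lum* at 185 against 95 and *Col1a2* at 413 against 240. *Ptch1* was also highest there, at 162 against 84 CPM. Interferon response genes summed to 575 CPM against 155.04, with *Isg15* at 107 against 35 and *Bst2* at 215 against 64.

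Sub-cluster 2 (144 cells) was led by cell cycle genes, with *Top2a* at 1083 CPM against 71 and *Mki67* at 409 against 37, and its G2 and M phase genes summed to 13325 CPM against 2372. Of these cells 131 lay in the cycling day 11 cluster 3. *C1qb*, a macrophage complement gene, appeared among its leading genes at 113 CPM against 2. This sub-cluster held 4 of the 5 cells that lay in the haematopoietic-like day 11 cluster.

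Sub-cluster 3 (130 cells) was led by *Ier3*, *P4ha2* and *Ero1l*, genes that low oxygen induces in many cells. The 13 hypoxia and glycolysis genes summed to 7408 CPM against 3620, with *Pgk1* at 3277 against 1358. *Ndufa4l2*, one of the genes higher than in *Tcf21* zero cells, had its highest level here, at 491 CPM against 167. Of these cells 88 lay in day 11 cluster 4, named smooth muscle and pericyte-like. Genes of that list summed to 299 CPM in sub-cluster 3 against 367 in the other members.

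Sub-cluster 4 (109 cells) carried *Kazald1* at 241 CPM against 17, *Tlx1* at 179 against 20 and *Cxcl13*, a lymphoid chemokine, at 151 against 19. It also had the highest *Tac2* level, at 706 CPM against 188, and *Kcnj8* at 134 against 67. Of these cells 88 lay in the unnamed day 11 cluster 11, the cluster with the highest share of the set. *Actc1* stood at 161 CPM there.

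Sub-cluster 5 (76 cells) had higher levels of some genes that were lower in the set than in *Tcf21* zero cells. *Prrx1* stood at 386 CPM against 84 in the other members, *Igf1* at 350 against 91, *Crabp2* at 134 against 34, *Zfhx3* at 238 against 88 and *Lpar1* at 156 against 59. *Hoxc* genes summed to 166 CPM against 154.7 in the other members and 412 in *Tcf21* zero cells. Paralogues 9 to 13 summed to 74.2 CPM against 146 and 308. The other members include the neural-gene sub-cluster 7, with *Hoxc* genes at 731 CPM and paralogues 9 to 13 at 861 CPM. In each remaining sub-cluster *Hoxc* genes were under the level of sub-cluster 5, at 13.9 to 128 CPM. Paralogues 9 to 13 lay on both sides of it there, at 18.5 to 79.4 CPM. Of these cells 62 lay in day 11 cluster 1, which held 39.3% of the *Tcf21* zero, *Pdgfra*+ cells.

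Sub-cluster 6 (74 cells) carried *Colec11* at 147 CPM against 11, *Gal*, a neuropeptide gene, at 161 against 15, and *Vcam1*, an adhesion molecule, at 167 against 26. *Acta2* was highest here, at 547 CPM against 137, with *Gucy1a1* at 441 against 121 and *Tagln2* at 399 against 98. *Tnnt2* at 252 against 33 CPM and *Tnni1* at 114 against 25 were also highest there, under the *Myl7* limit. *Actc1* was not, at 54.4 CPM against 161 in sub-cluster 4. Hox genes were lowest there, at 121 CPM in sum against 639.

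Sub-cluster 7 (38 cells) was led by neural genes, with *Tubb3* at 438 CPM against 4, *Sox2* at 299 against 3 and *Rtn1* at 349 against 3. Of the neural ectoderm list 9 of 10 genes were raised, and these 38 cells held 75.1% of its UMIs in the whole set. Their median depth of 20911 UMIs was the highest, 19 of them were among the 8% highest doublet scores, and 24 lay in neural ectoderm-like day 11 clusters. They still carried mesenchyme genes at lower levels, with *Col3a1* at 334 CPM and *Dcn* at 28. What part doublets or stray transcripts had in these 38 cells was not tested. These cells do not carry the label mesenchyme by their leading genes.

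**Figure D4:**
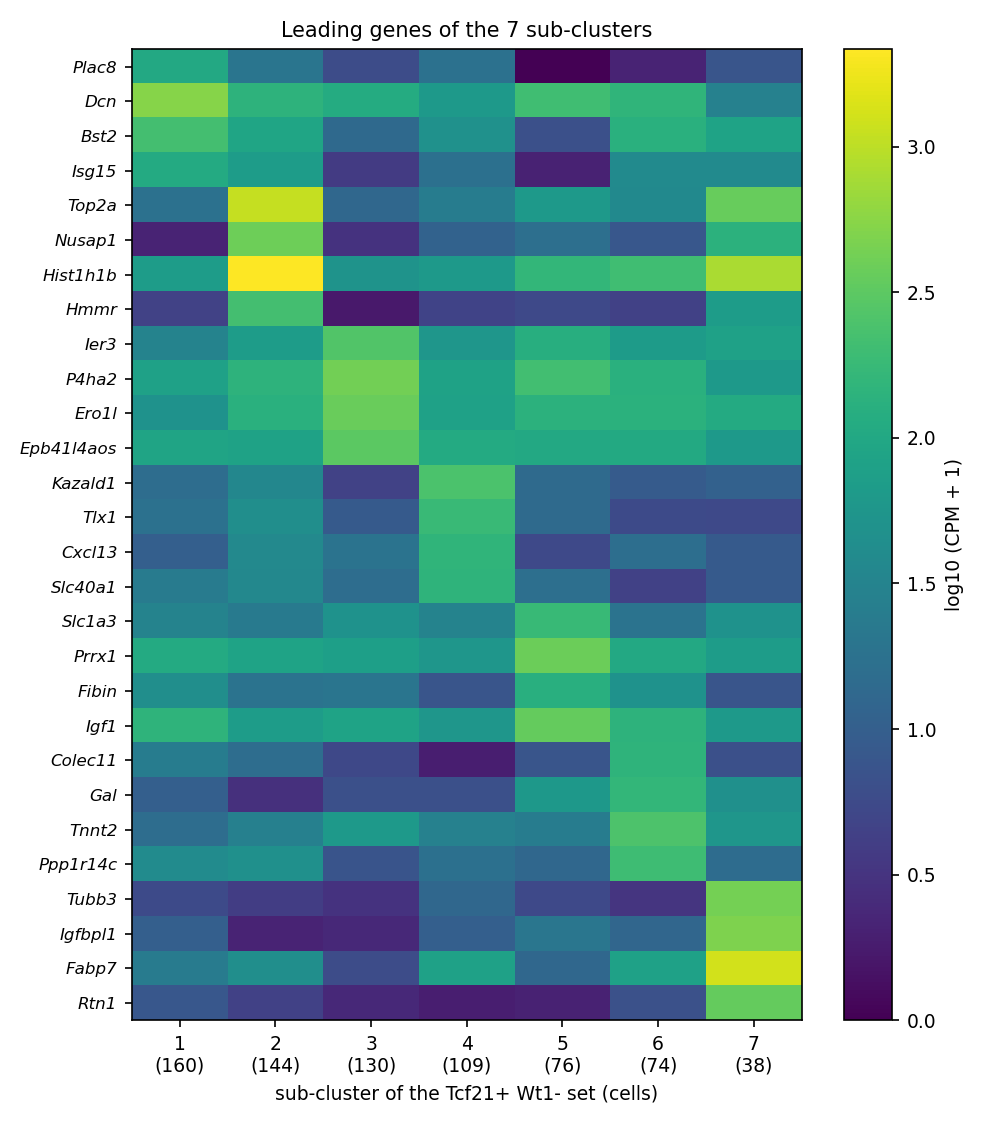
Level (log10 of CPM plus 1) of up to 4 leading genes of each of the 7 sub-clusters of the *Tcf21*+ *Wt1*- cells, with the number of cells under each column. Sub-cluster 7 (38 cells) stands apart by neural genes such as *Tubb3* (438 CPM), and *Top2a* and *Hist1h1b* are highest in sub-cluster 2 (144 cells).

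The same rule was applied to the earlier libraries. It took 171 of 7202 cells at day 4 (2.37%), 97 of 7408 at day 5 (1.31%), 613 of 5850 at day 6 (10.5%, 9.71 to 11.3%) and 731 of 8730 at day 11. Earlier libraries were deeper, which makes single UMIs easier to find. With every cell thinned to 5000 UMIs before the rule was applied, the shares were 0.460% (0.317 to 0.646%), 0.359% (0.235 to 0.525%), 5.11% (4.55 to 5.71%) and 7.01% (6.47 to 7.58%). This left out 30, 164, 115 and 340 shallower cells. Thinning also removes UMIs of *Wt1*, *Cdh5*, *Epcam* and *Msc*, so it loosens those limits. At day 6, 293 of 529 *Tcf21*+ cells met the rule after thinning, beside 613 of 1669 before. At day 11 it was 588 of 1116 beside 731 of 1903. The order of days 6 and 11 turned with thinning, and *Tcf21* over all cells of days 4 and 5, at 1.33 and 0.902 CPM, lay under its level in day 11 endothelium-like cells (4.68 CPM).

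Between days 6 and 11 the cells meeting the rule differed in matrix genes. *Dcn* stood at 0.8 CPM at day 6 and 196 at day 11, *Lum* at 1.8 and 111, *Postn* at 5.3 and 101, *Col1a1* at 27.9 and 287 and *Tac2* at 21.3 and 247. *Kcnj8* and *Gucy1a1* stood at 0.1 and 6.6 CPM at day 6 and 74.6 and 150 at day 11. Several transcription factors of early mesoderm were on the other side, with *Hand2* at 205 CPM at day 6 and 74.2 at day 11, *Twist1* at 245 and 133, *Isl1* at 60.8 and 17.2 and *Pitx1* at 35.2 and 8.1. *Tlx1* (53.5 and 38.3 CPM) was already present at day 6. In the cells that did not meet the rule, each gene named here differed in the same direction between days 6 and 11. There *Dcn* stood at 0.385 and 67.2 CPM, *Col1a1* at 25.2 and 123, *Hand2* at 128 and 60.7 and *Twist1* at 153 and 102. The directions were therefore not particular to the cells meeting the rule. The cardiogenic factors ended at day 7, between these days. With 1 library per day, day, library and culture medium cannot be told apart.

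**Figure D5:**
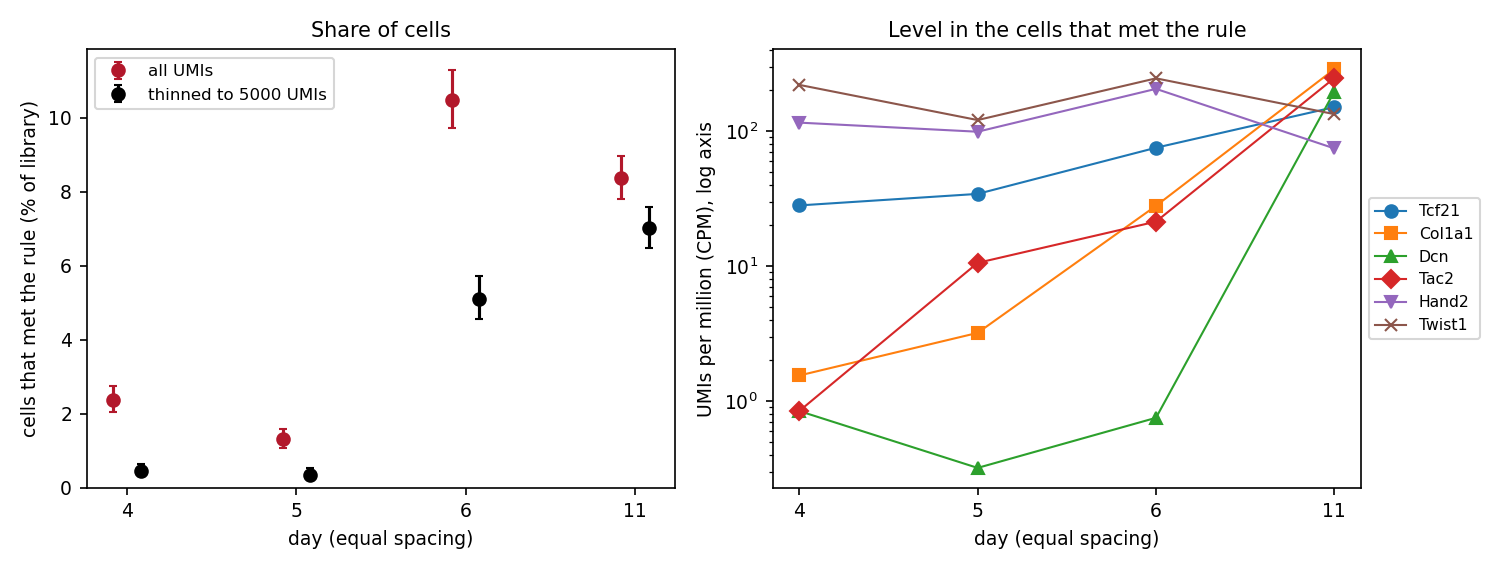
Left, share of cells of each library that met the rule, with all UMIs (red) and after thinning to 5000 UMIs (black), with exact 95% binomial intervals; days 6 and 11 change order, from 10.5% and 8.37% to 5.11% and 7.01%. Right, level (CPM, log axis) of 6 genes in those cells by day, where *Dcn* and *Col1a1* are far higher at day 11 than at day 6 and *Hand2* and *Twist1* lower. Days are drawn at equal spacing. *Tcf21*, 1 of the 6, chose the cells, so its course is no result. Its floor of 1 UMI is a higher CPM at day 11 (median 10910 UMIs) than at day 4 (37367).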

How the data were processed

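Single-cell RNA libraries of Zx1 gastruloids (days 4, 5, 6 and 11, 1 library per day) were made with a 10X Genomics 3′ kit. The authors deposited raw UMI counts per gene and called cell, with feature and barcode lists, without normalization. The submitters' processing notes name Cell Ranger 3.1.0 and mm10, while the header of the day 11 matrix names software version 6.0.1. Depth was 149169498 to 236714826 UMIs per library, and 9498706 UMIs in the 731 cells.

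Counts were summed over the cells of a set and scaled to CPM. Genes at 10 CPM or more in either set were compared, and a gene was higher or lower when CPM plus 10 differed 2 times or more, leaving out rule genes, mitochondrial and ribosomal genes, and *Pdgfra* where it defined a set. Intervals were exact Clopper-Pearson (shares), exact Poisson (CPM) and exact conditional binomial (ratios), at 95%. The procedure was tested on simulated counts. Cells were thinned at random to 5000 UMIs for shares across depths, and 2 of the 731 cells and 338 others of day 11 were too shallow. Clustering used log-normalized counts, 2000 variable genes without the rule genes, 30 components, 20 neighbours and Leiden at resolution 1 (leidenalg 0.10.2, scikit-learn 1.9.0, scipy 1.17.1, Python 3.11.15). A cluster was named "like" a cell type when 1 list had more raised markers than any other (at least 2 times the other cells, in 10% of cells or more), 3 or more were raised, and no other list held more of its 10 leading genes. Doublet scores followed the Scrublet method with 2 simulated doublets per cell.

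Named genes were the rule genes, the 20 largest and 10 smallest ratios to all other cells, the 10 and 10 against *Tcf21* zero cells, the 5 and 5 against *Wt1*+ and *Gata6*-high cells (at 100 CPM or more in the higher set), leading genes of clusters, and the largest and smallest ratios within each gene list. The cells, lists and comparisons were chosen with earlier results of these data known. The alternatives were other limits on UMIs, mitochondrial and ribosomal share, 2 or more *Tcf21* UMIs, doublets left out, mean CPM per cell, thinning, other pseudocounts, no limit on CPM, a fold of 1.5, *Pdgfra*+ cells as comparison and other clustering settings. Gene coordinates are from RefSeq on GRCm38.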

Additional observations from a re-analysis of the deposited data

How the results depend on the processing

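No paired analysis was possible because each day has 1 library, and for the same reason no replicate could be left out. Asking for 2 or more *Tcf21* UMIs left 360 cells (4.12%). Thinning before the rule gave shares of 0.460%, 0.359%, 5.11% and 7.01% of cells for days 4, 5, 6 and 11. Against all other cells (32 higher, 290 lower), the number of higher genes was 17 with the mean of each cell's CPM, 16 with thinned cells, 9 when only cells with *Pdgfra* were compared and 49 without sub-cluster 7. A pseudocount of 1 CPM gave 114 higher and 503 lower, one of 50 CPM gave 3 and 86, and a fold of 1.5 gave 226 and 602. Against *Tcf21* zero cells (18 and 57), the same settings gave 72 and 140, 2 and 10, and 119 and 188, and leaving out sub-cluster 7 gave 92 lower. Against *Gata6*-high cells it gave 14 higher in place of 38. Leaving out sub-cluster 7, an alternative chosen after seeing the data, also turned 3 of the 70 ratios of named genes: *Fabp7* to 0.684 against *Tcf21* zero cells and 0.512 against *Wt1*+ cells, and *Ckb* to 0.929 against *Wt1*+ cells. Sub-cluster 7 holds *Fabp7* at 1289 CPM. Of 600 recomputed ratios of CPM plus 10, 386 lay within counting error of the value given, 211 moved further but kept their side of 1, and 3 changed side. The other limits on UMIs, mitochondrial and ribosomal share moved no count by over 1.5 times. The number of clusters with 5% or more of the cells was 8, and 6 to 8 under other settings. Sub-clusters numbered 7, and 5 and 8 at resolutions of 0.5 and 1.5, also chosen after seeing the data. Depth limits what a zero *Tcf21* or *Wt1* count says of a cell, and with 1 library, differences between gastruloids cannot be told apart from those between libraries.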
